A study of Mus musculus with 20 samples.

Results

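The comparison described here set RNA of mouse embryos labelled Ptdsr-/- at embryonic day 13.5 (E13.5) against a pool of Ptdsr+/+ RNA of the same age, on 4 arrays read in 2 colours. These are 4 of the 20 arrays of the series, which also holds 4 arrays at E11.5 and 12 at E12.5 with the same pair of genotypes. Arrays 1 and 2 carried the mutant RNA in the dye Cy5 and arrays 3 and 4 in Cy3, with the control pool in the other dye. Per the labels, the reference was pooled from 6 control animals. The design text gives technical repeats at E13.5 and separate biological samples at E12.5 alone, so the 4 arrays count as 1 sample of mutant RNA against 1 control pool, and the number of embryos behind the mutant RNA is not given. The sources used here do not give the strain, the sex or the exact allele. The source label says embryo and the extraction protocol speaks of organs, so which parts of the embryo entered the RNA is not settled. The measurement is a log2 ratio per probe, centred on the median of each array, and probes with a value on at least 3 of the 4 arrays were averaged per gene. This gave 18139 probes and 9144 of the 9930 genes on the array, 7134 of them with a value on all 4 arrays.

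Ptdsr was once taken for the phosphatidylserine receptor of phagocytes, hence its name. Its product, today called Jmjd6, is an enzyme of the nucleus that needs iron and 2-oxoglutarate, hydroxylates lysines of other proteins, and binds factors of mRNA splicing. In mouse embryos of this age the liver is the site of red blood cell formation and also makes albumin and other plasma proteins, a task it shares with the yolk sac. Ribosomal proteins, subunits of the respiratory chain and of the proteasome, and replication factors are made in all growing cells and are among the more abundant messages of such tissue. In RNA from a whole tissue, fewer cells of a type and less RNA per cell cannot be told apart.

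The deposited values hold a clue to their direction. On every E13.5 array the values on one side of 0 are log2 of ratios written with 3 decimals, for each of the 1823, 1029, 531 and 528 values, by array, that lie 2 to 4 log2 units from the constant of the array, against 29.4% to 45.7% on the opposite side. The rounded side changed with the dye: it was the low side on arrays 1 and 2 and the high side on arrays 3 and 4. The deposited sign thus runs opposite to the dye order on arrays 3 and 4, and all 4 arrays run in the same genotype direction. If the rounded ratio was Cy5 over Cy3, the usual order, values above 0 are higher in the mutant, which is the likely reading, but no source used here states the order. So the text says above or below 0 rather than higher or lower in the mutant. For each gene list the median with the sign of arrays 3 and 4 turned is given too, relative to the median of all genes. With that sign a gene with like values in both orientations has a mean near 0 by arithmetic, so these values are no separate check.

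The 4 arrays differed in how firmly they measured. They held 16104, 17138, 18677 and 19174 values, in order of array number, and the spread of their values, as the median absolute deviation, was 0.78, 0.56, 0.45 and 0.39 on the log2 scale. Between 27.9% and 39.5% of the values of an array were log2 of a ratio of whole numbers up to 10 plus the array's constant, within 0.001, against 1.85% to 2.47% at other constants. Few counts of brightness would give such values, but this was not tested. They are called whole-number ratios here, and genes without any of them, 2465 of 9144, are taken as the better measured ones. The signal of a spot over its background is unknown, because only ratios were used. Among 283 probes that were never missing and never a whole-number ratio on any of the 20 arrays, the medians were 0.69, 0.28, 0.13 and 0.30 on arrays 1 to 4, so better measured probes lay above the array median on each array. Centring on those probes instead moved the median of all genes from -0.01 to -0.35, and the median of each list is given relative to it, as the value with the other centring. This centring takes the same constant from every gene of an array. The relative value therefore stays near the first median by construction and is no check of it.

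Jmjd6, the targeted gene, stood at 0.45, 0.91, -0.81 and 0.36 on arrays 1 to 4, with a mean of 0.23 ± 0.73 (SD, n = 4 arrays). The values lay on both sides of 0, and 69.7% of all genes had a lower mean. It has 2 probes here. The one free of whole-number ratios gave 0.93, -0.34, -0.46 and 0.36, and the other gave -0.04, 2.15 and -1.15 on arrays 1 to 3, all 3 of them whole-number ratios. The limma fit gave 0.23 ± 1.34 (SE) with adjusted p = 1. At E11.5 the mean of Jmjd6 was -0.65 ± 0.26 (SD, n = 4 arrays), with 4 of 4 arrays below 0, and at E12.5 it was -0.91 ± 1.46 (n = 12), with 10 of 12 below. The difference between E13.5 and E12.5 was 1.14 ± 1.40 (SE) with adjusted p = 1 by limma. The sources used here do not say which part of the transcript the probes cover or which part the mutant allele still makes. At E13.5 the targeted gene thus gives no check of the labels, and the RNA is called by its label.

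The genes beside Jmjd6 on the chromosome were looked up in the RefSeq gene order, 10 protein-coding genes on each side. Of these 20, 10 had values and 8 had 4 of them, and of the 8, 2 lay below 0 on all arrays, against 7.91% of all genes, and 0 above. Mxra7, the next gene on one side, stood at -0.79, -1.16, -0.28 and -0.46, with a mean of -0.67 ± 0.39 (SD, n = 4), and 3 of the values of its 4 probes were whole-number ratios. Tnrc6c, a scaffold of microRNA silencing complexes 7 genes away on the other side, stood at -0.44, -0.77, -0.03 and -0.48. It averages 6 probes with 6 whole-number ratios, and 2 of these probes had means above 0. Srsf2, the splicing factor 2 genes away, had values on both sides of 0, from -1.13 to 1.09.

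No gene passed the test. The arrays of E13.5 were averaged to 1 sample and set against the spread of the 12 arrays at E12.5, and of 7683 genes tested by limma, 0 had an adjusted p under 0.05 (0.0%), and 16 had an unadjusted p under 0.05, 4 above 0 and 12 below. With all 20 arrays as single samples 0 passed as well (0.0%), with 310 genes at an unadjusted p under 0.05 and a smallest adjusted p of 0.264, that of Alb. With the 4 arrays fitted alone 0 of 9144 genes passed, with a smallest adjusted p of 0.542. The number of arrays limits the precision. Standard errors had a median over genes of 1.04 in the first of these fits and 0.50 in the fit with all arrays, which differs in form. On simulated data the first fit found almost none of the changes of the size described below, so the absence of calls says little about them. In each fit the E13.5 value comes from 1 preparation. The spread behind the p-values was that of the 12 arrays at E12.5 in the first fit. It was that of all 20 arrays in the fit with single samples, and of the 4 repeats in the fit of these alone. None of them is the spread between mutant embryos at E13.5, and the spread of the control animals within the pool does not enter. All statements below on single genes and lists are therefore descriptions of these 4 arrays, and no gene named below passed the test.

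The 10 genes with the smallest p, 5 on each side, rested largely on 1 array. The 5 above 0 were Tmem123, Pabpc1, Chrac1, Fastkd2 and Shcbp1, and the 5 below were Fam120b, Hs6st1, Gss, Phyhipl and Stimate. Array 1 was the array farthest from 0 for 8 of these 10. Only 4 of them had a value on each array, and only Chrac1 and Shcbp1 lay on 1 side of 0 on all 4. Gss, glutathione synthetase, stood at -7.16 on array 1 against -0.40 and -0.26 on arrays 3 and 4, with no value on array 2. Pabpc1, the poly(A)-binding protein, stood at 7.12, 1.87, -0.02 and 0.80.

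Counts of genes on 1 side of 0 on all 4 arrays give another view. Of the 7134 genes with 4 values, 815 lay above 0 on all 4 arrays (11.4%) and 564 below 0 on all 4 (7.91%). Among the 2045 of them without a whole-number ratio the shares were 20.4% above and 7.43% below, and among the 5089 others 7.82% and 8.10%. Genes without such a ratio made up 27.0% of all genes. They made up 42.9% of the ribosomal protein list, 53.3% of the imprinted list and 15.2% of the macrophage list. The share of all genes, against which the lists below are set, is thus not matched to each list. Genes that also averaged 2-fold or more were few: 52 above (0.729%) and 103 below (1.44%). With the sign of arrays 3 and 4 turned, 432 genes lay above 0 on all 4 arrays and 439 below. Of the 1379 genes on 1 side, 427 had several probes, and 96 of these (22.5%) had a probe whose mean lay on the other side. The Spearman correlation between the mean of arrays 1 and 2 and the mean of arrays 3 and 4 was 0.10 across the 7134 genes and 0.28 across the 2045 without a whole-number ratio. These correlations are across genes of the same 4 arrays, and genes are not independent replicates. Over 4700 probes without a whole-number ratio, all 4 pairs of arrays with opposite dyes correlated positively, with Spearman values from 0.14 to 0.25, and the pairs with the same dye gave 0.22 and 0.37. Over all 12758 probes with 4 values, opposite dyes gave 0.05 to 0.12 and the same dye 0.07 and 0.21. Over the 8058 of these with a whole-number ratio, opposite dyes gave 0.006 to 0.043.

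**Figure D1:**
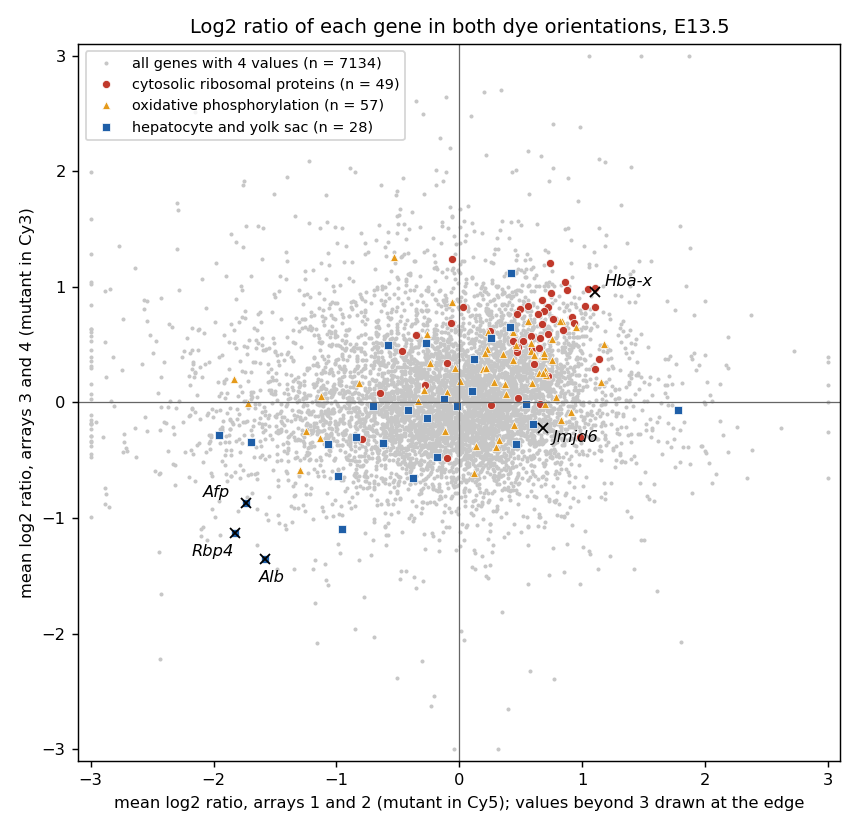
Each point is a gene with 4 values, with its mean log2 ratio on arrays 1 and 2 (mutant in Cy5) on the horizontal axis and on arrays 3 and 4 (mutant in Cy3) on the vertical axis, and values beyond 3 are drawn at the edge. Grey points are all 7134 genes, coloured points are 3 gene lists, and crosses mark named genes. Ribosomal protein genes gather in the upper right, above 0 in both orientations, and Alb, Afp and Rbp4 lie in the lower left, below 0 in both.

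Genes for the proteins of the cytosolic ribosome lay above 0 for most members and on each array. Of 56 measured genes 49 had a mean above 0 and 7 below, with a median of 0.54, against -0.01 for all genes. The median by array was 0.65, 0.61, 0.57 and 0.53, so each array and each dye orientation gave about the same value. Of the 49 genes with 4 values, 34 lay above 0 on all 4 arrays (69.4%, against 11.4% of all genes) and 0 lay below on all 4. Among members without a whole-number ratio the count was 21 of 23, against 20.4% of all such genes. The median SD of a member over the 4 arrays was 0.28, against 0.59 for all genes.

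The large and the small subunit gave like values, with medians of 0.48 over 33 genes and 0.59 over 23. Rpl7, of the large subunit, stood at 1.17, 0.93, 1.08 and 0.88, a mean of 1.02 ± 0.14 (SD, n = 4) or a ratio of 2.02. Rps20, of the small subunit, stood at 0.89, 0.86, 0.98 and 0.96, a mean of 0.92 ± 0.06 or a ratio of 1.89. For both genes the 4 arrays lay close together and the ranges of the dye orientations overlapped or nearly met. Rpl9 (0.96 ± 0.18) and Rpl23 (0.95 ± 0.21) also lay above 0 on every array. The members above 0 on all 4 arrays had means from 0.43 to 1.04, a narrow range. The 7 members below 0 included Rplp0, the stalk protein, at -0.94, -0.65, -0.67 and 0.03, and Rps16 at -0.71, -0.53 and -0.32 on arrays 1, 3 and 4. Many ribosomal protein genes have near-identical processed pseudogenes, so what a single probe reads is uncertain.

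The position of the group depends on the centring. With arrays 3 and 4 turned, its median was -0.0019 and 0 members lay above 0 on all 4 arrays, which follows from like values in both orientations. Centred on the 283 better measured probes, its median was 0.19, with 20 members above 0 on all 4 arrays and 4 below, and it lay 0.54 above the median of all genes. At E12.5 the median of the same list ran from -1.49 to 0.53 over the 12 arrays with a middle value of -0.09, and at E11.5 from -0.33 to 0.04 over 4 arrays. Of the E13.5 arrays, 4 of 4 lay above the highest array of the other ages, but the lowest only narrowly, at 0.533 against 0.531. Array medians of the ages overlapped for the respiratory chain and ATP synthase (0.27 to 0.45, against up to 0.36 at E12.5). They did so for the proteasome (0.41 to 0.75, against up to 0.46). Arrays 9 and 10 of E12.5 held 50.1% and 57.7% whole-number ratios. These differences between ages were not tested.

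Start sites of ribosomal protein genes usually lie in an unbroken run of pyrimidines, the letters C and T, known as the terminal oligopyrimidine tract, through which growth signals act on translation of these messages. Below are 30 bases around the annotated start site of 6 members, from RefSeq on GRCm38.p6. These are the first 6 in the ranking above 0 that had a single promoter entry, with members on a chromosome excluded from printing passed over. Each runs 5′ to 3′ on the strand of the gene from 15 bases before the start site to its base 15, and capitals mark the run of C and T that covers the first base of the gene, where that base is C or T.
Rpl9: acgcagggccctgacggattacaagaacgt
Rpl23: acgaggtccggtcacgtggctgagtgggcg
Rps15a: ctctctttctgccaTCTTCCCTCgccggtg
Rps3a1: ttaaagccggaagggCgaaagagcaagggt
Rpl28: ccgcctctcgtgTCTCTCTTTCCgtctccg
Rps7: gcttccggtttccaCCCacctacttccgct
They lie at chr5:65391417-65391446 (minus strand), chr11:97782425-97782454 (minus), chr7:118116133-118116162 (minus), chr3:86142654-86142683 (minus), chr7:4792950-4792979 (plus) and chr12:28635939-28635968 (minus). The runs were 0, 0, 9, 1, 11 and 3 bases long in the order shown, so only Rps15a and Rpl28 had a run of at least 5. A run of at least 5 pyrimidines over the first base was found in 15 of the 40 measured members with a single entry (37.5%) and in 2232 of 22862 genes of the table (9.76%). Among members above 0 on all 4 arrays the count was 10 of 26 (38.5%), near the share of the whole list. Annotated start sites can be off by some bases, which moves them out of such a run.

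Fewer members of the other translation lists lay above 0 on all arrays. On all arrays 8 of the 31 translation factors with 4 values lay above 0 (25.8%, against 11.4% of all genes). Of 35 measured translation factors 25 had means above 0 and 10 below, with a median of 0.21. Relative to all genes that median was -0.02 with the sign turned and 0.21 with the other centring. The arrays with the mutant in Cy5 alone gave 0.064, and leaving out array 2 gave 0.11. Tpt1, the translationally controlled tumour protein, stood at 1.16, 1.06, 0.82 and 0.81, and Eif3e, a subunit of an initiation factor, at 0.78, 0.55, 0.89 and 0.64. Both lay well above 0 in each orientation. Among 27 genes of ribosome biogenesis 10 were above 0 and 17 below, with a median of -0.10, which stood at -0.22 relative to all genes with the sign turned and -0.10 with the other centring. The dye orientations lay on opposite sides, at -0.34 with the mutant in Cy5 and 0.14 in Cy3, and without array 2 the median was 0.067 and without array 3 -0.33. Of 19 members with 4 values, 4 lay above 0 on all arrays (21.1%, against 11.4% of all genes) and 1 below (5.26%, against 7.91%). The 4 were Npm1, nucleophosmin (1.12, 1.05, 0.94, 0.59), Ncl, nucleolin (0.80, 0.40, 1.01, 0.28), Fbl, the methylase fibrillarin (0.76, 0.62, 0.31, 0.28), and Nhp2, of the particles that modify ribosomal RNA (0.97, 0.23, 0.71, 0.09). The member below was Ddx21 (-1.13, -0.53, -0.13, -0.10), the average of probes with means from -1.43 to 0.30. Ribosomal proteins of mitochondria had a median of 0.13 over 59 genes, with 7 of 48 above 0 on all arrays (14.6%) and 3 below (6.25%), shares near those of all genes. Relative to all genes the median was 0.01 with the sign turned and 0.14 with the other centring.

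Genes for the respiratory chain and ATP synthase also lay above 0 more often than below. Of 66 measured genes 50 had means above 0 and 16 below, with a median of 0.34 and array medians of 0.41, 0.45, 0.27 and 0.34. Of 57 with 4 values, 25 lay above 0 on all 4 arrays (43.9%, against 11.4% of all genes) and 1 below. Among those without a whole-number ratio the count above was 15 of 21, against 20.4% of all such genes. The median was 0.33 for the 31 genes of complex I, 0.47 for 11 of complexes II and III, 0.26 for 11 of complex IV, the cytochrome oxidase, and 0.34 for 13 of ATP synthase, and the members above 0 on all arrays were 7 of 23, 6 of 10, 5 of 11 and 7 of 13. Atp5pb, of the stalk of ATP synthase, stood at 0.81, 0.85, 0.59 and 0.81, a mean of 0.77 ± 0.12 (SD, n = 4). Ndufa7, of complex I, stood at 1.04, 0.86, 0.39 and 0.91, and Cox6c, of complex IV, at 0.51, 0.60, 0.86 and 0.55. Uqcrc2, a core protein of complex III, stood at 1.14, 0.50, 0.82 and 0.58. All 4 genes lay above 0 in both orientations. Cox8a was the member below 0 on all arrays, at -2.17, -0.43, -1.08 and -0.09. The list stood 0.35 above all genes with the other centring, where its own median was 0, and 0.09 above with the sign turned.

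The proteasome, which breaks down proteins marked with ubiquitin, gave a median of 0.47 over 29 genes, with 21 above 0 and 8 below. Of 23 members with 4 values, 11 lay above 0 on all arrays (47.8%, against 11.4% of all genes) and 0 below. Relative to all genes the median was 0.08 with the sign turned and 0.45 with the other centring. Psmb7, a catalytic subunit, stood at 0.77, 0.54, 0.86 and 0.62, and Psmc2, an ATPase of the cap, at 0.62, 0.67, 0.68 and 0.46. Both kept within a narrow band. Psmb2 and Psmd14, at means of 1.68 and 1.66, had the highest means among members above 0 on all arrays, but 4 and 3 of their values were whole-number ratios and their arrays spread from 0.56 to 3.17 and from 0.76 to 2.37. Psmb1 was the member most at odds between arrays, at -3.99 on array 1 and 0.45, 0.81 and 1.13 on the others. Among protein folding genes 25 of 35 lay above 0, with a median of 0.29 and 12 of 32 above on all arrays (37.5%, against 11.4%). Against the median of all genes, that median was 0.09 with the sign turned and 0.29 with the other centring. Subunits of the chaperonin that folds actin and tubulin lay on both sides of 0: Cct2 stood at 1.03, 0.82, 0.49 and 0.64, Tcp1, the average of 3 probes with means from -0.016 to 2.00, at 1.79, 1.02, 0.46 and 0.41, and Cct5 at -1.14, -0.64, -0.30 and -0.41. The stress genes Ddit3, a transcription factor of the unfolded protein response, and Herpud1 lay below 0 on all arrays, with means of -0.36 and -0.29.

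**Figure D2:**
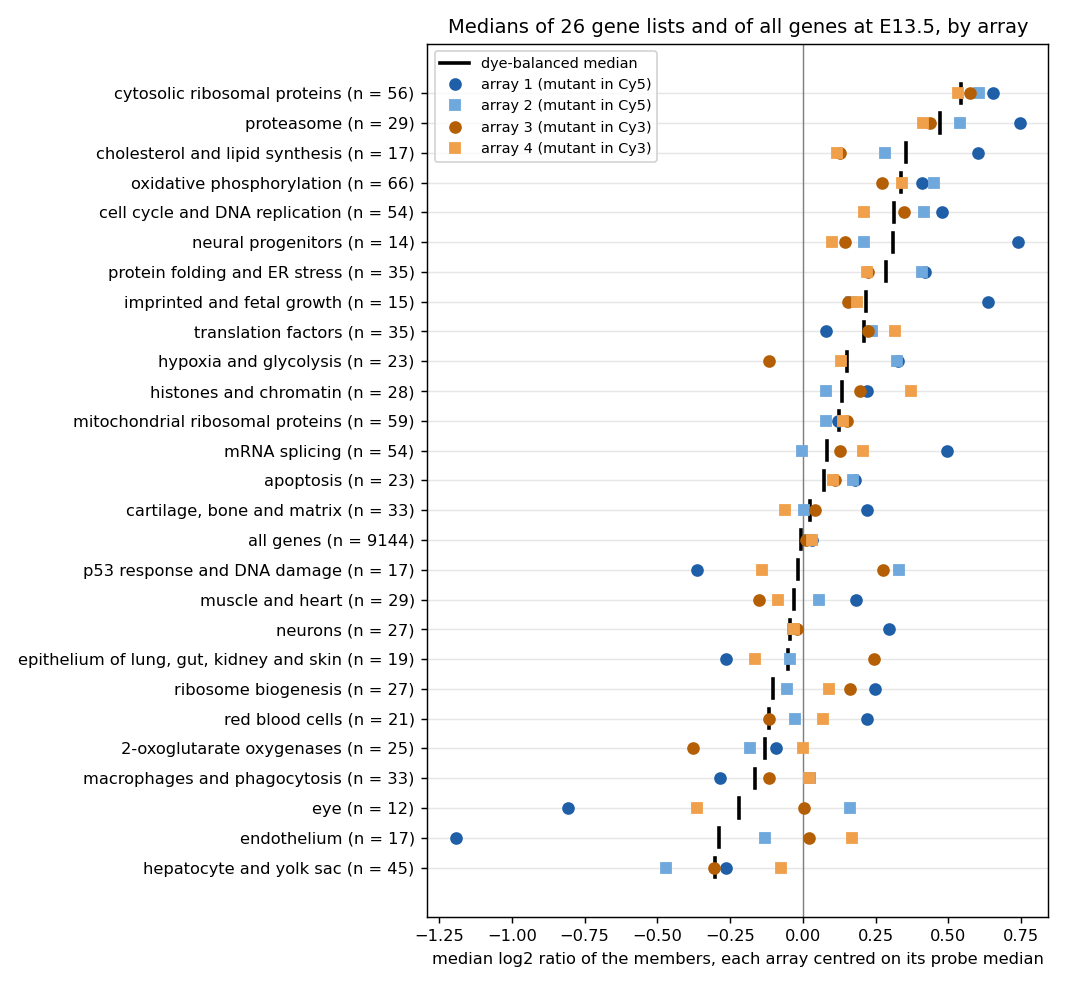
Each row is a gene list with its number of measured genes, and each point is the median log2 ratio of its members on 1 array, coloured by array and dye orientation, with a black bar for the median of the dye-balanced means. The ribosomal list sits at 0.53 to 0.65 on all 4 arrays, and the hepatocyte and yolk sac list, with a median of -0.30, is below 0 on all 4. For the endothelium and eye lists, array 1 lies far from the other arrays.

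Genes of fetal liver and yolk sac, mostly for plasma proteins, had the highest share of members below 0 on all arrays among the lists. Of 45 measured genes 31 had means below 0 and 14 above, with a median of -0.30 and array medians of -0.26, -0.47, -0.31 and -0.08. Of 28 members with 4 values, 8 lay below 0 on all 4 arrays (28.6%, against 7.91% of all genes) and 2 above (7.14%). Of the 7 markers of this tissue, which are Alb, Afp, Ttr, Apoa1, Rbp4, Fgb and Trf, 7 had means below 0 and 4 lay below on all arrays, and 2 were free of whole-number ratios. The median of the list was -0.76 over its 16 genes without a whole-number ratio. Taken from the median of all genes, it stood at -0.33 with the other centring and at -0.14 with the sign turned.

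Carriers in plasma had the most members below 0 on all arrays, 5 of 9. Alb, serum albumin, stood at -1.72, -1.45, -1.22 and -1.48, a mean of -1.47 ± 0.20 (SD, n = 4) or a ratio of 0.362, and a mean of -0.12 with the sign of arrays 3 and 4 turned. All 4 arrays lay more than 1 below 0 and neither orientation stood apart. The limma value was -1.47 ± 0.63 (SE) with adjusted p = 1. Afp, alpha-fetoprotein, the main plasma protein of the fetus, averaged -1.58, -1.89, -1.0 and -0.73 over its 3 probes, a mean of -1.30 ± 0.53. Its probes differed in size: one gave -2.11, -2.61, -1.96 and -1.98, another -1.05, -0.99, -0.68 and -0.35, and the last -2.08, -0.37 and 0.13 on arrays 2 to 4. Rbp4, the carrier of retinol, stood at -2.58, -1.07, -1.74 and -0.52, below 0 throughout but spread over more than 2 log2 units. Serpina6, which carries corticosteroids, stood at -1.10, -0.87, -0.80 and -0.48, and Trf, transferrin, the carrier of iron, at -0.58, -0.17, -0.51 and -0.80. Ttr, the carrier of thyroid hormone, had values on both sides of 0, from -0.47 to 0.47.

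Among clotting factors and protease inhibitors 9 of 14 lay below 0. Fgb, the fibrinogen beta chain, stood at -2.27, -1.87 and -0.66 on arrays 2 to 4, while Fgg, the gamma chain, had values on both sides of 0, from -0.86 to 0.92. Serpina1b, an inhibitor of elastase, stood at -1.22, -0.69, -1.86 and -0.32, and Serpinf1, the pigment epithelium-derived factor, at -0.82, -1.31, -0.44 and -0.27. Both were below 0 on all arrays. A2m, an inhibitor of many proteases, went the other way, at 0.75, 0.07, 0.84 and 0.46. Of the apolipoproteins, Apom was below 0 on all arrays (-1.13, -0.55, -0.32, -0.28), and Apoh was below on 3 of 4. Of 12 regulators and enzymes of liver 9 had means below 0, but 0 of the 6 with 4 values lay below on all arrays. Among the regulators Hnf4a stood at 0.30, -0.54 and -0.63 on arrays 2 to 4, Foxa3 ran from -1.07 to 0.54, and Prox1 from -0.02 to 0.22. Cps1, an enzyme of the urea cycle, was above 0 on all arrays, at 0.05, 0.79, 1.78 and 0.46.

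Promoters of albumin-type genes are known to bind the liver factor HNF1, whose site holds the letters GTTAAT. The 120 bases before the annotated start site are shown for Alb, Afp and Fgb, which were chosen after their values were seen, because they are markers of this tissue far below 0 and hold these letters there. They are from RefSeq on GRCm38.p6, run 5′ to 3′ on the strand of the gene, and capitals mark GTTAAT or its reverse complement, ATTAAC.
Alb: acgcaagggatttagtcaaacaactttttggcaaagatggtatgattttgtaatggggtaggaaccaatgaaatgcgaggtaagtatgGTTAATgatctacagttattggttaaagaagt
Afp: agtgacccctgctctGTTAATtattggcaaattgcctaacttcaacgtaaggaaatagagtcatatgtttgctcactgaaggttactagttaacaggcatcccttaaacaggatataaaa
Fgb: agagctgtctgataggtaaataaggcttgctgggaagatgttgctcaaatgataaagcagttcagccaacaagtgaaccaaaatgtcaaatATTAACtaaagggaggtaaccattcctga
They lie at chr5:90460750-90460869 (plus strand), chr5:90490594-90490713 (plus) and chr3:83049864-83049983 (minus). The first capital stands at base -32 for Alb, -105 for Afp and -29 for Fgb, counted back from the start site. On either strand of the 250 bases before the start site the letters occur in 8 of 31 measured members of the list with a single entry (25.8%), in 3 of 40 ribosomal protein genes (7.50%) and in 1528 of 22862 genes of the table (6.68%). A match of these letters is a description of the sequence, not a shown binding site.

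Red blood cell genes were mixed. Of 18 members with 4 values, 2 lay above 0 on all arrays (11.1%, against 11.4% of all genes) and 3 below (16.7%, against 7.91%). Of 21 measured genes 7 had means above 0 and 14 below, with a median of -0.11. Set against all genes, that median was 0.04 with the sign turned and -0.08 with the other centring. Hba-x, the embryonic alpha-type globin of the first red cells, stood at 1.34, 0.86, 0.90 and 1.0, a mean of 1.03 ± 0.22 (SD, n = 4) or a ratio of 2.04. Hba-a1, the adult alpha globin, stood at 0.26, -0.39, -0.12 and 0.26, so the embryonic gene was above 0 on all arrays and the adult gene on both sides. The sequences of globins are alike, and cross-reading between them was not tested. Alas2, the first enzyme of heme synthesis in red cells, and Slc4a1, their anion exchanger, had values on both sides of 0, with means of -0.01 and -0.11. Tal1, a regulator of blood formation, stood at -0.78, -1.66, -0.40 and -0.58, and Car2, a carbonic anhydrase, at 0.36, 0.16, 0.65 and 0.07.

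**Figure D3:**
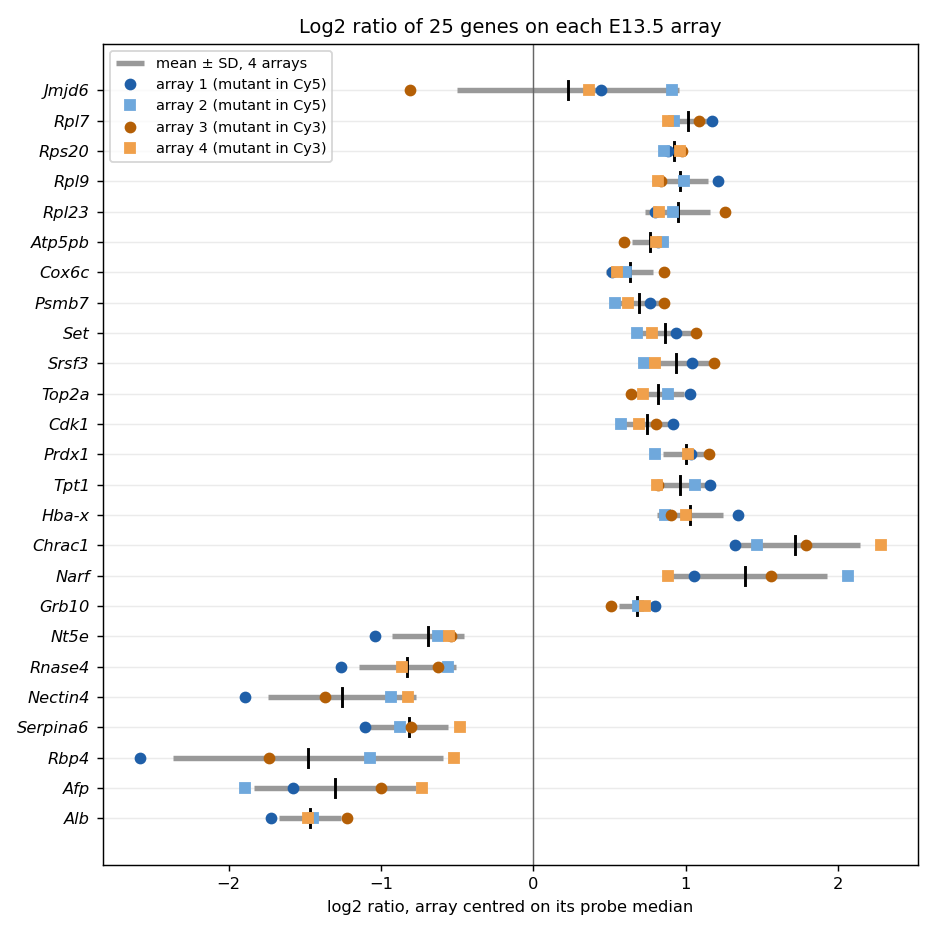
Points are the log2 ratios of 25 genes on the 4 arrays, coloured by array and dye orientation, with the mean as a black bar and ± 1 SD in grey. Rps20 and Rpl7 lie near 1 on every array, Alb lies between -1.72 and -1.22, and Jmjd6 spreads over both sides of 0.

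Genes of DNA replication lay above 0 more often than below, and genes of mitosis did so once array 1 was left out. Of 54 measured genes 36 had means above 0 and 18 below, with a median of 0.31 and array medians of 0.48, 0.42, 0.35 and 0.21. Of 38 with 4 values, 10 lay above 0 on all arrays (26.3%, against 11.4% of all genes) and 0 below. The replication genes had 25 means above 0 and 7 below, with a median of 0.36, and 8 of 23 lay above on all arrays (34.8%). The mitosis genes had 11 above and 11 below, with a median of 0.10, and 2 of 15 lay above on all arrays (13.3%). Their array medians were -0.24, 0.54, 0.58 and 0.27. Without array 1 the median was 0.36 for mitosis and 0.35 for replication. Mcm4, of the helicase that opens DNA, stood at 0.74, 0.42, 1.0 and 0.58, and Mcm7, of the same ring, at 0.61, 1.30, 0.40 and 0.74. Top2a, the topoisomerase of dividing cells, stood at 1.02, 0.88, 0.64 and 0.72, and Cdk1, the kinase that drives mitosis, at 0.92, 0.57, 0.80 and 0.70. These 4 genes were above 0 in both orientations, whereas Mcm3, of the same ring as Mcm4, and Aurka, a mitotic kinase, had means of -0.84 and -0.69 with arrays on both sides of 0. The list stood 0.32 above all genes with the other centring, where its own median was -0.03, and 0.12 above with the sign turned.

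Chromatin proteins were mixed, with 17 of 28 above 0, a median of 0.13 and 7 of 24 above on all arrays (29.2%, against 11.4% of all genes). Against the median of all genes, that median was -0.05 with the sign turned and 0.16 with the other centring, and it was 0.002 with the mutant in Cy5 alone. The group above 0 held Set, an inhibitor of histone acetylation, at 0.94, 0.68, 1.07 and 0.78, Hmgn2, a protein that loosens nucleosomes, at 0.80, 0.89, 1.07 and 0.65, and Hdac1, a histone deacetylase, at 0.55, 0.45, 0.69 and 0.44. The 2 members below 0 on all arrays, Smarca4 (-0.14, -0.28, -0.27, -0.30) and Smarcc1 (-0.78, -1.28, -0.05, -0.57), are averages of probes that differ. The probe of Smarca4 without a whole-number ratio stood at 1.08, -0.36, 0.20 and 0.40, the other of its probes had 3 such ratios and a mean of -0.82, and both probes of Smarcc1 had values on both sides of 0. Genes of mRNA splicing, the process in which Jmjd6 has partners, had a median of 0.08 over 54 genes. On all arrays 11 of 49 lay above 0 (22.4%, against 11.4% of all genes) and 3 below (6.12%, against 7.91%). Srsf3, an SR protein, stood at 1.04, 0.73, 1.18 and 0.80, and Snrpd1, a core protein of the snRNPs, at 0.90, 0.49, 0.98 and 0.96. Sf3a3, of the U2 snRNP, stood at -1.26, -0.43, -2.15 and -1.78. U2af1, of the factor that marks the 3′ splice site, had a mean of -0.27. Taken from the median of all genes, the median of the splicing list was 0.05 with the sign turned and 0.08 with the other centring. It was 0.26 without array 2 and from 0.10 to 0.13 without any other array. Over its 16 genes without a whole-number ratio it was 0.42.

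Oxygenases that use 2-oxoglutarate, as Jmjd6 does, gave 10 genes above 0 and 15 below of 25, with a median of -0.13. The 12 of the JmjC family had 7 above and 5 below, with a median of 0.12, but -0.03 with the mutant in Cy5 and -0.02 in Cy3. Hydroxylases of collagen, HIF and DNA had 3 above and 10 below of 13, with a median of -0.18. Set against all genes, the median of the whole list was -0.04 with the sign turned and -0.13 with the other centring. Its side rested on array 3, since without that array it was 0.075, and without array 4 it was -0.33. Of 19 with 4 values 0 lay above 0 on all arrays and 3 below (15.8%, against 7.91% of all genes). The 3 were Plod1, a lysyl hydroxylase of collagen (-0.37, -1.81, -0.38, -0.23), Alkbh5, an RNA demethylase (-1.43, -0.19, -0.58, -0.22), and Hr (-0.04, -0.57, -0.83, -0.32). Of the 2 probes each of Plod1 and Alkbh5, 1 had values on both sides of 0. Genes of macrophages and of the engulfment of dying cells, the role once given to Ptdsr, gave 10 above 0 and 23 below of 33, with a median of -0.16. That median was 0.073 without array 1, so its side rested on that array, and relative to all genes it was -0.03 with the sign turned and -0.17 with the other centring. Only 5 of the 33 genes were free of whole-number ratios. On all arrays Tyrobp, a signalling adaptor of myeloid cells (0.43, 0.05, 0.40, 0.32), and Calr, calreticulin (0.49, 0.34, 0.13, 0.39), lay above 0, and Fcgr1, an antibody receptor (-0.59, -0.89, -1.18, -0.22), and Elmo1, an engulfment protein (-0.24, -0.18, -0.26, -0.12), below. Elmo1 averages 4 probes with 6 whole-number ratios, and 3 of these probes had values on both sides of 0. Of the macrophage markers Ptprc and Cd68 had means of -1.17 and -0.98 and C1qa a mean of 1.05, so the markers did not lie on 1 side.

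Of the lists of other cell types, some had medians near 0 and others rested on array 1. Neurons (median -0.04 over 27 genes), muscle and heart (-0.03 over 29), and cartilage, bone and matrix (0.02 over 33) lay near the median of all genes. Above 0 on all arrays lay 3 of 23 neuron genes, 3 of 24 muscle genes (12.5%) and 5 of 29 matrix genes (17.2%), near the 11.4% of all genes, and below lay 2 (8.70%), 4 (16.7%) and 0, against 7.91%. Against the median of all genes, the medians were 0.07, 0.14 and 0.14 with the sign turned and -0.01, -0.03 and 0.03 with the other centring. Among the members picked for lying on 1 side on all arrays, Actc1, the cardiac actin, stood at 0.86, 0.62, 0.30 and 0.52, and Stmn2, a tubulin-binding protein of neurons, at 0.51, 0.21, 0.78 and 0.47 over 3 probes, 1 of them with values on both sides of 0. Myog, the muscle regulator, stood at -0.24, -0.45, -0.65 and -0.12, and Chrna1, the acetylcholine receptor of muscle, at -2.35, -0.99, -0.82 and -0.12. Neural progenitor genes had a median of 0.31 over 14 genes, with array 1 at 0.74 and the others between 0.10 and 0.21. Without array 1 it was 0.20, and relative to all genes it was 0.14 with the sign turned and 0.31 with the other centring. Hes1, a target of Notch, stood at 0.99, 0.47, 1.13 and 0.12, and Nes, nestin, at 0.67, 0.21, 0.14 and 0.37, while Pax6 had a mean of -0.84. Endothelium (-0.29 over 17 genes) and eye (-0.22 over 12) had array 1 at -1.19 and -0.81, and without array 1 their medians were 0.054 and -0.025. Taken from the median of all genes, they were -0.19 and 0.08 with the sign turned and -0.27 and -0.22 with the other centring. Epithelia had a median of -0.05 over 19 genes, with -0.15 and -0.05 in those settings. Of the placenta and trophoblast list 2 genes had values, both with means below 0, and of its 4 defining markers 0 were on the array. A ratio gives no level, so the presence of a cell type could not be checked from these values.

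Metabolic and growth genes gave smaller groups. Of 17 genes of cholesterol and lipid synthesis 11 lay above 0, with a median of 0.36. On all arrays 5 of 17 lay above (29.4%, against 11.4% of all genes). Msmo1, a sterol oxidase, stood at 1.42, 1.25, 0.56 and 0.85, and Acly, which makes cytosolic acetyl-CoA, at 0.53, 0.45, 0.53 and 0.39. Set against all genes the median of that list was 0.04 with the sign turned and 0.36 with the other centring, against 0.15 in both for glycolysis and hypoxia, 0.03 and 0.27 for imprinted and fetal growth genes, -0.05 and 0.12 for apoptosis, and 0.06 and -0.05 for the p53 response. Glycolysis and hypoxia genes had a median of 0.15 over 23 genes, with Ldhb, a lactate dehydrogenase, at 0.69, 0.55, 0.35 and 0.42 and Pkm, pyruvate kinase, at 0.76, 0.17, 0.54 and 0.13. Of 10 imprinted or fetal growth genes with 4 values, 4 lay above 0 on all arrays: Grb10, which restrains insulin signalling (0.80, 0.69, 0.51, 0.73), Peg3 (1.02, 0.73, 0.14, 0.70), Igf2, the fetal growth factor (0.77, 0.66, 0.09, 0.21), and Igf2r, its clearing receptor (0.66, 0.03, 0.38, 0.19). Insr, the insulin receptor, lay below 0 on all arrays, at -1.12, -0.61, -0.75 and -0.63. Apoptosis genes (median 0.07 over 23 genes) and the p53 response (-0.02 over 17) lay near the median of all genes, and the apoptosis median was -0.075 without array 3 and that of the p53 response 0.16 without array 1. Bnip3l, a mitophagy receptor that red cells use to clear mitochondria, stood at 0.52, 0.45, 0.64 and 0.43, and Bcl2, which blocks apoptosis, at -4.16, -2.69, -0.27 and -0.11.

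**Figure D4:**
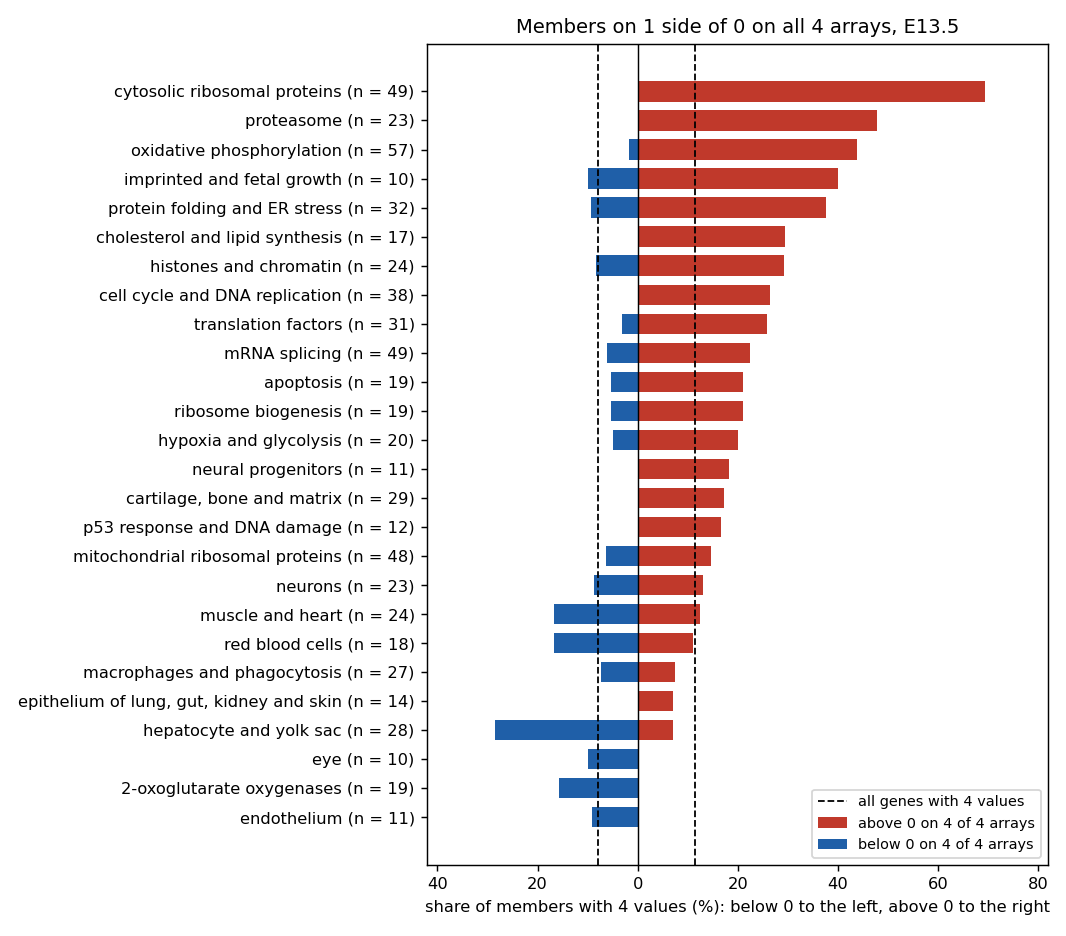
Bars give, for each list, the share of members with 4 values that lay above 0 (right, red) or below 0 (left, blue) on all 4 arrays, with dashed lines at the shares of all genes, 11.4% and 7.91%. The ribosomal list reaches 69.4% above with 0 below, and the hepatocyte and yolk sac list has the highest share below, 28.6%.

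Genes were also ranked by the array nearest to 0 among those without a whole-number ratio. Above 0 the first 10 were Chrac1, Rpl7, Narf, Hba-x, Rps20, Mtrex, Rpl9, Tpt1, Prdx1 and Rpl23, 4 of which are ribosomal proteins. Chrac1, a histone-fold protein of a chromatin remodelling complex, stood at 1.32, 1.47, 1.79 and 2.28. Narf, which binds prelamin A, stood at 1.05, 2.07, 1.56 and 0.88. Prdx1, a peroxidase, stood at 1.03, 0.80, 1.15 and 1.01, and Mtrex, the helicase of the nuclear exosome, at 0.82, 0.83, 1.05 and 0.98. Each was above 0 in both orientations. With the sign turned the fitted value of Chrac1 was -0.32. Below 0 the first 10 were Alb, Nectin4, Aatf, Theg, Rnase4, Nt5e, Tac2, Serpina6, Pla2g12b and Slco4a1, led by Alb. Nectin4, an adhesion protein, stood at -1.89, -0.94, -1.37 and -0.82, Rnase4, a secreted ribonuclease, at -1.26, -0.56, -0.62 and -0.86, and Nt5e, the ectonucleotidase CD73, at -1.04, -0.63, -0.54 and -0.55. These 3 spanned both orientations. Among genes with a whole-number ratio the first 4 above were Mrpl23, Chd6, Rapsn and St6galnac4 and the first 4 below Tmem120b, Gm920, Ccdc125 and Dqx1. Their values are taken as less firm, since at least 1 of them is a whole-number ratio.

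The values of the same genes at the earlier ages are given side by side. All ages used control pools, and whether they share animals is not given. Alb had a mean of -0.58 ± 0.42 (SD, n = 4 arrays) at E11.5, with 4 of 4 below 0, and of -0.30 ± 0.39 (n = 11) at E12.5, with 11 of 11 below, so it lay below 0 at each age. Its difference between E13.5 and E12.5 was -1.19 ± 0.65 (SE) with adjusted p = 1 by limma. Afp stood at -0.15 ± 0.32 (n = 4) at E11.5 and 0.03 ± 0.55 (n = 11) at E12.5, and Rpl7 at -0.05 ± 0.33 (n = 4) and -0.09 ± 0.65 (n = 12). Hba-x stood at 0.59 ± 0.24 (n = 3) at E11.5, above 0 on 3 of 3 arrays, and at -0.03 ± 1.05 (n = 12) at E12.5. No gene passed between E13.5 and E12.5, with 0 of 7683 called (0.0%) and 20 at an unadjusted p under 0.05, or between E13.5 and E11.5, with 0 of 7181 called (0.0%) and 9 at an unadjusted p under 0.05.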

How the data were processed

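For each probe of an array the authors deposited a single number, a log2 ratio of both channels as judged from the values. No source used here names the scanner, how spots were filtered or how the ratios were normalised. Values over 12 from 0, which repeat a ratio of 100000, were treated as missing. Each array was centred on its probe median. Of 20355 probes, 14030 had 1 gene symbol, 5 several and 6320 none in the probe annotation, and 13994 were updated through their gene identifier. Probes of a gene were averaged. Means weight both dye orientations equally.

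The test was that of limma 3.58.1 (R 4.3.3) with a term for the dye and Benjamini-Hochberg adjustment over all genes, threshold 0.05. Genes needed at least 3 of 4 values at E13.5 and 8 of 12 at E12.5, and the lone averaged sample of E13.5 was assumed to vary like 1 array of E12.5. The fit was tested on simulated data with arrays that varied independently. There the fit of averaged arrays found most changes of 8 log2 units, a minority of those of 4 and almost none of the smaller ones. The fit with all arrays as single samples found most changes of 4 log2 units and few of 1. Members and the 27 gene lists were chosen with earlier results of these data known. Named genes were Jmjd6, the 5 smallest p on each side, and genes on 1 side of 0 on 4 arrays, ranked by the array nearest 0, among all genes (10 and 4 per side) and within lists (4 per side). Others named were chosen after their values were seen. Same-number arrays are not stated to share a sample, so the number was a block only as an alternative.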

Additional observations from a re-analysis of the deposited data

Results flagged for a closer look

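Among 166 sets of 4 arrays looked at (the named genes with 4 values and the medians of lists), 14 held an array whose gap to the others exceeded Dixon's 95% critical share of the range. The rate of 1 in 20 by chance holds for independent values of equal spread. These arrays differed in spread and most of the genes were picked for lying on 1 side of 0, so that rate does not apply here. Array 1 was the outlying array in 7 of the 14. It stood at 0.30 for the median of neurons, 0.64 for the median of imprinted and fetal growth genes, -3.94 for Aatf, -1.17 for Tac2, -2.95 for Ccdc125, 1.05 for Mrps12 and -2.11 for Elavl3. Array 2 stood apart at -1.81 for Plod1, 0.99 for Tnc and 1.45 for Cct3. Array 3 did so at 3.31 for Chd6, 0.39 for Uqcr11 and -4.06 for Nos3, and array 4 at -0.37 for Blvrb. Array 1 also held the fewest values, 16104, and the widest spread, 0.78, and the part of these in the outlying values was not tested.

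Of the genes looked at, 2 lay on opposite sides of 0 at E13.5 and E11.5 on all arrays of both ages. Dqx1 lay below 0 at E13.5 and averaged 1.56 at E11.5, and Chrna1 lay below 0 at E13.5 and averaged 0.67 at E11.5. These differences were picked from the named genes and were not tested.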

How the results depend on the processing

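No gene was called in any of 53 fits, the smallest adjusted p being 0.264, and with the replicate number as a block limma called 0 genes against E12.5 (664 at an unadjusted p under 0.05) and 0 against E11.5 (344). The arrays are technical repeats of 1 sample, so the block is only a shared number. With the sign of arrays 3 and 4 turned, 432 genes lay above 0 on all arrays, and the medians were -0.0019 for ribosomal proteins, 0.062 for oxidative phosphorylation and 0.049 for the proteasome. Chrac1 then stood at -0.32 and Fastkd2 at -1.02. Centred on the 283 better measured probes, 214 genes lay above 0 on all arrays and 1841 below. The medians were then 0.19 for ribosomal proteins, 0 for oxidative phosphorylation, 0.10 for the proteasome and -0.68 for hepatocyte and yolk sac genes, and Jmjd6 stood at -0.12. Some lists above 0 with the first centring fell below it, such as translation factors (-0.14), protein folding (-0.06) and imprinted and fetal growth genes (-0.08). Cholesterol and lipid synthesis then stood at 0.006. Without whole-number ratios only 3249 genes had 4 values, of which 625 lay above 0 on all arrays and 254 below. With those ratios it was 815 and 564 of 7134. The ribosomal median without them was 0.67. Over genes with no such ratio, an alternative chosen after seeing the data, the medians were 0.70 for ribosomal proteins, 0.43 for oxidative phosphorylation and -0.76 for hepatocyte and yolk sac genes. Without centring the ribosomal median was 0.46 and that of oxidative phosphorylation 0.26, and with arrays scaled to 1 spread the ribosomal median was 0.63. Arrays with the mutant in Cy5 alone gave 0.62 for ribosomal proteins, and those with it in Cy3 alone 0.25 for oxidative phosphorylation. Only genes with a value on every array of E12.5 and E13.5 gave -0.042 for the hepatocyte list, over 5 genes, 2 above 0 and 3 below. Jmjd6 stood at -0.37 with floored values kept. Leaving out 1 array at a time gave medians of 0.54 to 0.59 for ribosomal proteins, 0.28 to 0.35 for oxidative phosphorylation, 0.37 to 0.56 for the proteasome and -0.34 to -0.17 for hepatocyte and yolk sac genes, and -0.065 (without replicate 4) to 0.52 (without replicate 3) for Jmjd6. The causes of these changes were not tested. Spot intensities were not used here, so what signal over background limits is unknown.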
